A study of Homo sapiens with 14 samples.

Results

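The 8 cullin scaffolds CUL1, CUL2, CUL3, CUL4A, CUL4B, CUL5, CUL7 and CUL9 were followed with the CUL4 adaptor DDB1 and the RING protein RBX1 in RNA of BxPC-3, as the labels name the line, a human pancreatic cancer cell line. These 10 genes were a listed set, matched by symbol to 10 of the 61541 Ensembl genes in the count table. The list was drawn up with the CPM of these libraries known (CPM are read counts scaled to library size). The levels of its genes are therefore a description, and no p-value is attached to them. RNA was sequenced from 3 libraries labelled shHDAC5 (genotype label HDAC5 knockdown, a short hairpin against the class IIa histone deacetylase HDAC5) and 3 libraries labelled shControl (genotype label WT, a control hairpin). All were taken at day 3. Binding of the transcription factor GATA1 was measured by chromatin immunoprecipitation in another pancreatic cancer line, PANC-1, under shHDAC5 and shControl, also at day 3, with 1 deposited peak list per condition from 2 immunoprecipitations and 2 inputs. Separate cultures are named by no label, so a p-value here covers only library-to-library spread, which may be technical.

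Cullins are the curved backbones of cullin-RING ubiquitin ligases. The amino-terminal end holds an adaptor and a substrate receptor, the carboxy-terminal end holds a RING protein that brings in the ubiquitin-loaded enzyme, and attachment of the small protein NEDD8 to the cullin switches the ligase on. The COP9 signalosome removes NEDD8 again, and CAND proteins let a cullin exchange one receptor for another. These ligases mark cell cycle regulators, signalling inhibitors and stress sensors for the proteasome, and CUL4A is known to be amplified in several tumours.

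The knocked-down gene went against its label. HDAC5 had 162, 161 and 169 CPM in the libraries labelled shHDAC5, against 95.4, 91.7 and 97.7 CPM in those labelled shControl, so each direction below is between libraries as labelled. The libraries held 15179758 to 17854340 counts. Of 19181 genes tested with edgeR's quasi-likelihood test, 84.7% passed at a Benjamini-Hochberg adjusted p under 0.05, with 44.8% of all genes tested higher in the libraries labelled shHDAC5 and 39.9% lower. Epithelial markers were uneven in all 6 libraries. The summed level of 8 such genes was 1346 to 1413 CPM in the libraries labelled shHDAC5 and 1502 to 1533 CPM in those labelled shControl, and 3 of the 8 (KRT19, EPCAM and CDH1) were under 3 CPM in every library. SMAD4 and CDKN2A, which are known to be deleted in BxPC-3, averaged 46.8 and 13.7 CPM in the libraries labelled shHDAC5 and 49.6 and 149 CPM in those labelled shControl, which goes against the labelled line. The summed level of 6 fibroblast markers was 85.7 to 90.9 CPM in the libraries labelled shHDAC5 and 121 to 131 CPM in those labelled shControl, with 4 of the 6 under 3 CPM in every library and LUM at 0 in all. For 4 endothelial markers it was 3.24 to 4.07 against 1.09 to 1.48 CPM, and for 6 leukocyte markers 7.72 to 9.10 against 3.20 to 4.19 CPM. The part of these markers in the results below was not tested.

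More genes of the cullin set were lower than higher in the libraries labelled shHDAC5, and the largest differences were downward. All 10 genes passed the filter on low counts. Of these, 3 were higher, 6 were lower and 1 did not pass, where 84.7% of all genes tested passed in either direction. In 9 of the 10 the groups did not overlap in CPM, against 84.8% of all genes tested. Of the 9, 3 were higher, against 45.0% of all genes, and 6 lower, against 39.8%. The median log2 fold change was -0.65 over the 10 genes and 0.09 over all genes tested. With upper-quartile factors or total counts in place of TMM scaling, 4 were counted as higher and 5 as lower, the difference lying in CUL9 and CUL4B. Upper-quartile factors moved the median of all genes by 0.14 and total counts by 0.18 on the log2 scale. Since the list was chosen from this contrast, nothing is read from these counts. In bulk RNA, fewer cells that make a transcript and less of it per cell cannot be told apart.

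**Figure D1:**
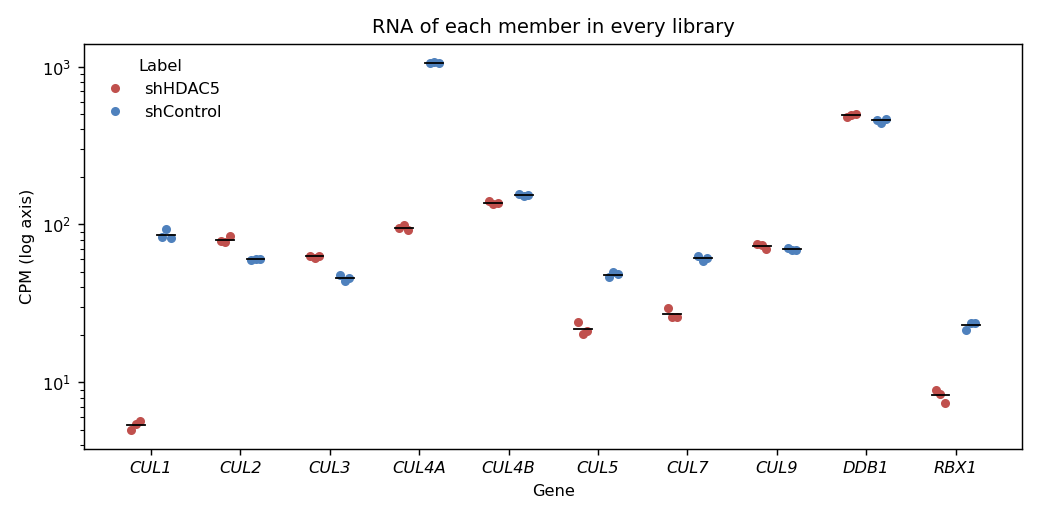
CPM of each of the 10 genes in every library on a log axis, with the 3 libraries labelled shHDAC5 (red) left of the 3 labelled shControl (blue) and a black line at each mean. CUL1 and CUL4A show the widest gaps, and among the 10 genes the groups overlap for CUL9.

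CUL1 (ENSG00000055130, chromosome 7, 148697756 to 148801110), the scaffold of the SCF ligases that pair it with SKP1 and an F-box protein, had the widest difference of the set. Coordinates are those of RefSeq on GRCh38.p14. Its level was 4.96, 5.44 and 5.70 CPM in the libraries labelled shHDAC5, against 83.0, 93.7 and 82.2 CPM in those labelled shControl. In counts this was 84, 95 and 102 under shHDAC5 labels, against 1289, 1341 and 1362 under shControl labels. Every library labelled shHDAC5 was thus far below every one labelled shControl. The log2 fold change, with its standard error (SE), was -4.0 (SE 0.0760), or 16.0-fold lower. Of all genes tested, 1.19% had a value below this.

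CUL4A (ENSG00000139842, chromosome 13, 113208193 to 113267108), one of the paired CUL4 scaffolds that carry DDB1 and its DCAF receptors, had the highest level per length of the 8 cullins in both groups. It had 94.3, 99.6 and 92.0 CPM in the libraries labelled shHDAC5, against 1052, 1062 and 1056 CPM in those labelled shControl. The 3 libraries of each group lay close together, and no library of either group came near the other group. The log2 fold change was -3.47 (SE 0.0291), or 11.1-fold lower, and 1.82% of all genes tested had a value below this. Its X-linked paralogue CUL4B (ENSG00000158290, chromosome X, 120523858 to 120575532) had 140.4, 135 and 136 CPM in the libraries labelled shHDAC5, against 157, 151 and 153 CPM in those labelled shControl. In CPM, before division by length, CUL4B was thus above CUL4A in every library labelled shHDAC5. The CUL4B groups did not overlap, but its log2 fold change of -0.16 (SE 0.0336) became -0.02 with upper-quartile factors and turned to 0.02 with total counts. DDB1 (ENSG00000167986, chromosome 11, 61299451 to 61333105), the adaptor that both CUL4 proteins share and that also recognises ultraviolet damage together with DDB2, had 481, 493 and 503 CPM in the libraries labelled shHDAC5, against 459, 441 and 467 CPM in those labelled shControl. Its groups were close but separate, with a log2 fold change of 0.11 (SE 0.0258), or 0.07 when no genes were filtered out.

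CUL3 (ENSG00000036257, chromosome 2, 224470150 to 224585363), which uses BTB-domain receptors such as KEAP1, was higher in the libraries labelled shHDAC5. It had 63.1, 61.3 and 63.6 CPM in the libraries labelled shHDAC5, against 48.0, 43.8 and 46.0 CPM in those labelled shControl, with a log2 fold change of 0.45 (SE 0.0506). CUL2 and CUL5 both dock receptors through elongins B and C, and they lay on opposite sides. CUL2 (ENSG00000108094, chromosome 10, 35008551 to 35127006), the scaffold of the VHL ligase, had 78.3, 77.5 and 84.2 CPM in the libraries labelled shHDAC5, against 59.9, 60.0 and 60.1 CPM in those labelled shControl. All 3 libraries labelled shHDAC5 were above all 3 labelled shControl, and the log2 fold change was 0.41 (SE 0.0453). CUL5 (ENSG00000166266, chromosome 11, 108008898 to 108107761), which works with SOCS-box receptors, had 24.2, 20.2 and 21.1 CPM in the libraries labelled shHDAC5, against 46.4, 49.7 and 48.2 CPM in those labelled shControl. The libraries labelled shHDAC5 were all below those labelled shControl, with a log2 fold change of -1.14 (SE 0.0651).

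The large atypical cullins CUL7 and CUL9 lie close together on chromosome 6 but differed in their values. CUL7 (ENSG00000044090, chromosome 6, 43037617 to 43053851), which is mutated in the growth disorder called 3M syndrome, had 29.4, 25.9 and 25.8 CPM in the libraries labelled shHDAC5, against 63.1, 58.3 and 61.3 CPM in those labelled shControl. The groups were far apart for CUL7, with a log2 fold change of -1.17 (SE 0.0583). CUL9 (ENSG00000112659, chromosome 6, 43182196 to 43224587), a cytoplasmic p53-binding protein also known as PARC, had 74.9, 74.4 and 69.6 CPM in the libraries labelled shHDAC5, against 71.0, 68.5 and 69.2 CPM in those labelled shControl. Its groups overlapped, and its log2 fold change of 0.07 (SE 0.0446) became 0.10 with RLE factors, 0.21 with upper-quartile factors and 0.25 with total counts.

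RBX1 (ENSG00000100387, chromosome 22, 40951378 to 40973309), the RING protein of most cullins, was among the 5 genes of the set that were at least 2-fold lower. It had 8.92, 8.47 and 7.44 CPM in the libraries labelled shHDAC5, against 21.5, 23.8 and 23.9 CPM in those labelled shControl. In counts this was 151, 148 and 133 under shHDAC5 labels, against 334, 341 and 396 under shControl labels. No library overlapped between the groups, and the log2 fold change was -1.48 (SE 0.0973), or 2.79-fold lower. The other 4 were CUL1, CUL4A, CUL7 and CUL5, and 0 of the 10 genes were at least 2-fold higher. Of all genes tested, 20.1% passed and were at least 2-fold lower, and 26.4% passed and were at least 2-fold higher. With total counts, CUL5 and CUL7 came to -0.96 and -0.99 on the log2 scale, which left 3 genes at least 2-fold lower.

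**Figure D2:**
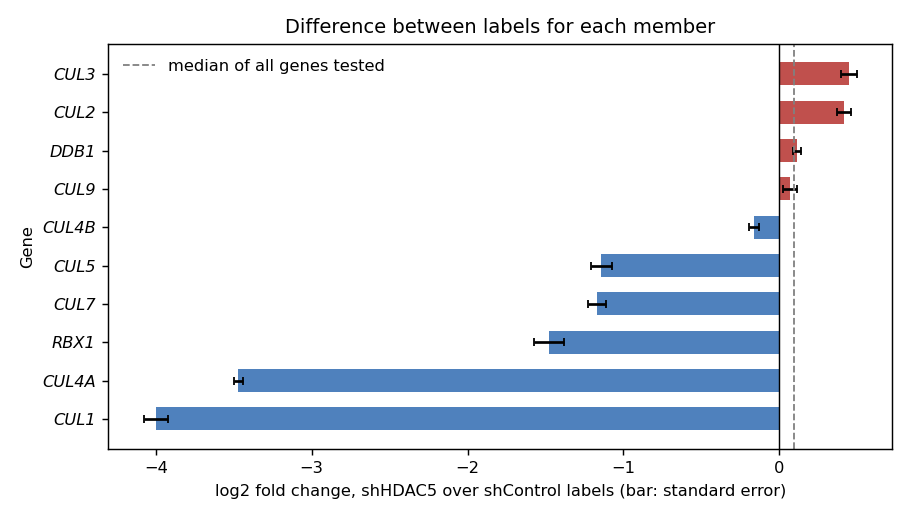
log2 fold change (shHDAC5 over shControl labels) of each of the 10 genes, with a bar for the standard error and a dashed line at the median of all genes tested. Values run between -4.0 for CUL1 and 0.45 for CUL3, and that of CUL4B, -0.16 here, turns to 0.02 with total counts.

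Libraries of a group were close to each other for every gene of the set. The coefficient of variation of CPM lay between 0.162% (CUL2, shControl) and 9.55% (CUL5, shHDAC5). Annotated pseudogene copies took few reads: CUL1P1, CUL4AP1 and RBX1P1 had no count, and RBX1P2 had 7 counts over the libraries labelled shHDAC5 and 10 over those labelled shControl. Some genes share genomic sequence with others, and the sources used here do not state whether counting used strand. CUL4A overlaps the neighbouring gene PCID2 by 477 bases, CUL2 overlaps CREM by 161 bases, and CUL7 overlaps a long noncoding RNA by 4111 bases, so reads from these stretches cannot be told apart.

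To compare genes with each other, CPM were divided by the gene length deposited with the counts, which is long for CUL4B (33815 bases) and DDB1 (15516 bases) and bears on the order. On this scale (CPM per kb) the order of the 10 genes differed between the labels. In the libraries labelled shHDAC5, DDB1 led with 31.7 ± 0.683 CPM per kb (SD, n = 3), followed by CUL4A with 12.2 ± 0.500 and CUL9 with 5.96 ± 0.239. CUL2, CUL3, CUL4B, CUL7, CUL5 and RBX1 came next, between 5.52 and 2.68 CPM per kb, and CUL1 was lowest with 1.29 ± 0.0901. In the libraries labelled shControl, CUL4A led with 135 ± 0.649 CPM per kb (SD, n = 3), followed by DDB1 with 29.4 ± 0.854 and CUL1 with 20.8 ± 1.55. CUL7, RBX1, CUL5, CUL9 and CUL4B came next, between 7.73 and 4.54 CPM per kb, and CUL2 and CUL3 were lowest with 4.14 ± 0.00671 and 3.99 ± 0.183. CUL1 was thus in place 10 in the libraries labelled shHDAC5, against place 3 in those labelled shControl. Neighbours in the order whose libraries overlapped were CUL9 and CUL2, CUL2 and CUL3, and CUL7 and CUL5 in the libraries labelled shHDAC5. In those labelled shControl they were CUL7 and RBX1, RBX1 and CUL5, and CUL2 and CUL3.

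The 8 cullins together had 41.2 ± 0.581 CPM per kb in the libraries labelled shHDAC5 and 189 ± 1.77 CPM per kb in those labelled shControl (SD, n = 3 each). CUL4A made up 29.6% ± 1.20 of this sum in the libraries labelled shHDAC5 and 71.4% ± 0.377 in those labelled shControl. The share of CUL1 was 3.14% ± 0.262 in the libraries labelled shHDAC5 and 11.0% ± 0.711 in those labelled shControl. CUL9, CUL2 and CUL3 took 14.5%, 13.4% and 13.2% of the sum in the libraries labelled shHDAC5, against 3.00%, 2.19% and 2.11% in those labelled shControl. The makeup of the summed cullin transcripts was thus dominated by CUL4A under shControl labels and was more even under shHDAC5 labels. These shares and the ratios below do not depend on the scaling of a library.

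Ratios of levels per length also differed. CUL4A stood at 3.00 ± 0.158 times CUL4B in the libraries labelled shHDAC5, against 29.8 ± 0.705 times in those labelled shControl. The lengths were 7813 bases for CUL4A and 33815 for CUL4B. In CPM under shHDAC5 labels CUL4A was the lower of the pair, at 95.3 against 137 for CUL4B. DDB1 stood at 1.95 ± 0.0830 times the sum of CUL4A and CUL4B in the libraries labelled shHDAC5, against 0.210 ± 0.00678 times in those labelled shControl. The adaptor transcript was thus above its summed scaffolds under shHDAC5 labels and below them under shControl labels. RBX1 stood at 0.0838 ± 0.00738 times the sum of CUL1, CUL2, CUL3, CUL4A, CUL4B and CUL7 in the libraries labelled shHDAC5, against 0.0423 ± 0.00237 times in those labelled shControl. RNF7, the RING protein that serves CUL5, stood at 2.24 ± 0.213 times CUL5 in the libraries labelled shHDAC5, against 2.79 ± 0.118 times in those labelled shControl. CUL7 stood at 0.576 ± 0.0342 times CUL9 in the libraries labelled shHDAC5, against 1.36 ± 0.0332 times in those labelled shControl. CUL2 stood at 1.67 ± 0.180 times CUL5 in the libraries labelled shHDAC5, against 0.565 ± 0.0192 times in those labelled shControl. On this scale the order of both pairs was turned round, which rests on the division by length. The lengths were 7873 bases for CUL7, 12242 for CUL9, 14494 for CUL2 and 6562 for CUL5. In CPM, CUL7 was below CUL9 and CUL2 was above CUL5 in every library of both groups.

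**Figure D3:**
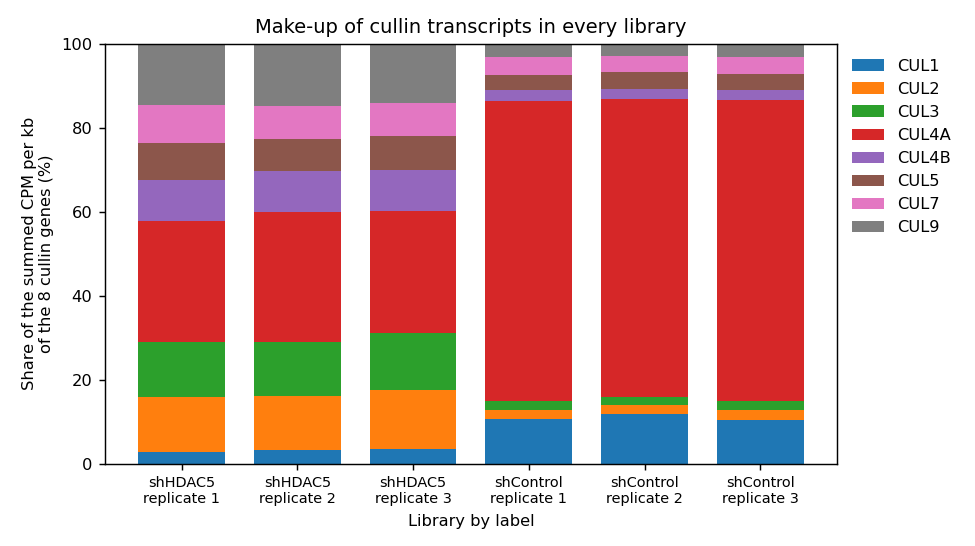
Share of each of the 8 cullin genes in their summed CPM per kb (percent, stacked) in every library, with the 3 labelled shHDAC5 on the left and the 3 labelled shControl on the right. CUL4A fills 29.6% of the sum on average on the left and 71.4% on the right.

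CUL4A was set beside its genomic neighbours, a look chosen after its values were seen. Of 12 tested coding genes within 500 kb of CUL4A on chromosome 13, 7 rose, 4 fell and 1 missed the threshold, and their median log2 fold change was 0.54. Of all genes tested, 44.8% rose and 39.9% fell, with a median of 0.09. PCID2, which overlaps the start of CUL4A and codes for a messenger RNA export protein, had 1348 ± 2.93 CPM in the libraries labelled shHDAC5, against 937 ± 8.08 CPM in those labelled shControl (SD, n = 3 each), a log2 fold change of 0.53 (edgeR's quasi-likelihood test, adjusted p = 1.28e-42). LAMP1, a lysosomal membrane protein on the other side, had 349 ± 3.23 CPM in the libraries labelled shHDAC5, against 226 ± 6.96 CPM in those labelled shControl, a log2 fold change of 0.63. Both flanking genes were thus on the opposite side from CUL4A. TFDP1, the partner of E2F transcription factors, fell with a log2 fold change of -1.68 and had 52.5 ± 1.57 CPM in the libraries labelled shHDAC5, against 168 ± 6.18 CPM in those labelled shControl. Beside CUL1, EZH2, a histone methyltransferase gene 6273 bases away on chromosome 7, had 124 ± 4.39 CPM in the libraries labelled shHDAC5, against 145 ± 6.11 CPM in those labelled shControl, a log2 fold change of -0.22 where CUL1 had -4.0.

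**Figure D4:**
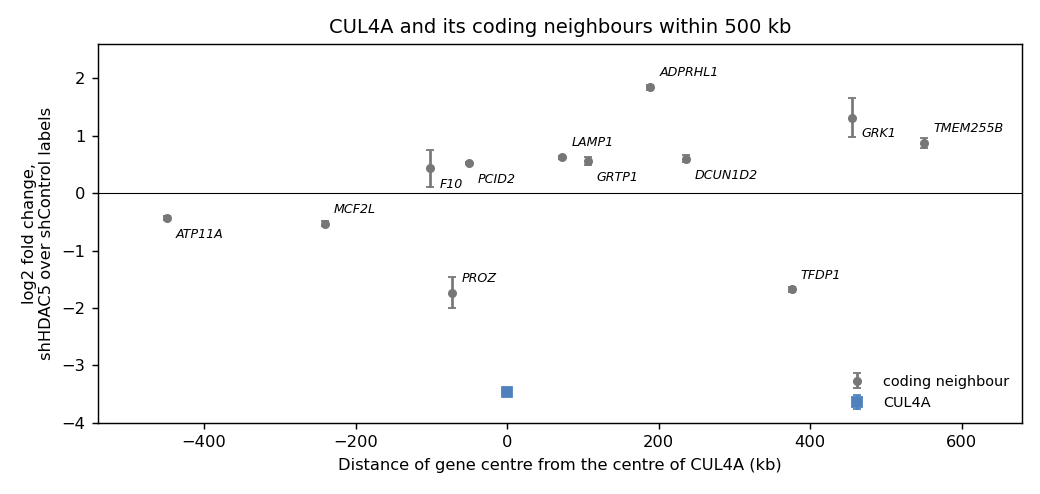
log2 fold change (shHDAC5 over shControl labels) with its standard error for CUL4A and 12 coding neighbours, by distance from CUL4A in kb. CUL4A stands at -3.47, and the flanking PCID2 and LAMP1 stand at 0.53 and 0.63.

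The partners of the cullins were read from 10 lists with 213 genes, of which 209 passed the filter. Of these, 77 rose under shHDAC5 labels and 108 fell by edgeR's quasi-likelihood test, 24 did not pass, and the median log2 fold change was -0.21 against 0.09 over all genes tested. With upper-quartile factors 86 rose and 96 fell, and with total counts 89 rose and 90 fell. The share that passed was 88.5% for the partners and 84.7% for all genes tested. The lists were chosen with earlier results of these data known, so these counts are a description. The highest adjusted p (edgeR's quasi-likelihood test) among the 38 partner genes chosen by rule was 0.00139. The rule took only genes that had passed, with the largest changes, so a low value follows from the choice. Values below are CPM with SD and n = 3 for each group, and each list's median is of log2 fold changes.

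Of 36 genes for SKP1 and the F-box receptors of CUL1, 15 rose and 17 fell, 4 missed the threshold, and the median was -0.0017; under total counts 17 rose and 11 fell. FBXW4 fell to 2.31 ± 0.285 CPM in the libraries labelled shHDAC5, against 21.8 ± 1.81 CPM in those labelled shControl. FBXO5, also known as EMI1, an inhibitor of the anaphase-promoting complex, fell to 10.6 ± 0.215 CPM, against 34.04 ± 1.42 CPM under shControl labels. FBXO18, a DNA helicase named FBH1 in the current table, rose to 118 ± 3.89 CPM, against 48.7 ± 2.79 CPM under shControl labels. FBXL18 rose to 63.4 ± 2.59 CPM, against 26.9 ± 1.68 CPM under shControl labels. These receptors thus moved both ways beside a scaffold that was 16.0-fold lower. SKP1, the adaptor that binds CUL1 itself, averaged 171 CPM in the libraries labelled shHDAC5 and 108 CPM in those labelled shControl, a log2 fold change of 0.67 on the opposite side from CUL1. SKP1 was singled out after its values were seen, as were the other partners below that are given as outside the rule.

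Of 37 tested genes for the elongins and the BC-box receptors of CUL2 and CUL5, 13 rose and 19 fell, 5 missed the threshold, and the median was -0.35. SOCS6, a suppressor of cytokine signalling, fell to 2.66 ± 0.218 CPM in the libraries labelled shHDAC5, against 25.7 ± 2.04 CPM in those labelled shControl. LRR1, the CUL2 receptor that helps unload the replicative helicase, fell to 1.45 ± 0.179 CPM, against 11.4 ± 0.988 CPM under shControl labels. FEM1C and ZER1, CUL2 receptors that read protein ends, rose. FEM1C reached 129 ± 0.527 CPM, against 37.8 ± 2.29 CPM under shControl labels. ZER1 reached 351 ± 1.43 CPM, against 106 ± 2.69 CPM under shControl labels. Outside the rule, the elongins ELOB and ELOC rose with log2 fold changes of 0.58 and 0.69, while VHL fell with -0.81.

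Of 37 tested BTB receptors of CUL3, 16 rose and 15 fell, 6 missed the threshold, and the median was 0.07. KEAP1, the sensor that holds the oxidative stress factor NRF2 in check, fell to 3.55 ± 0.627 CPM in the libraries labelled shHDAC5, against 25.8 ± 1.29 CPM in those labelled shControl. KLHL42 fell to 2.49 ± 0.287 CPM, against 16.8 ± 1.39 CPM under shControl labels. The widest rises were of a like size to the widest falls in this list. KLHL25 rose to 21.96 ± 0.858 CPM, against 2.51 ± 0.637 CPM under shControl labels. KCTD17, linked to cilium assembly, rose to 69.0 ± 2.73 CPM, against 11.4 ± 1.11 CPM under shControl labels.

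Of 26 DCAF receptors and DDB1 partners, 6 rose and 16 fell, 4 missed the threshold, and the median was -0.41. DTL, the receptor that degrades the licensing factor CDT1 during replication, fell to 33.3 ± 1.79 CPM in the libraries labelled shHDAC5, against 114 ± 0.452 CPM in those labelled shControl. TRPC4AP fell to 77.9 ± 2.98 CPM, against 195 ± 5.30 CPM under shControl labels. CRBN, the target of thalidomide, rose to 93.5 ± 0.307 CPM, against 48.1 ± 0.552 CPM under shControl labels. DCAF13 rose to 83.0 ± 1.17 CPM, against 54.4 ± 1.87 CPM under shControl labels. Both tested partners of CUL7 fell. FBXW8, its F-box receptor, had 23.5 ± 2.53 CPM, against 32.7 ± 0.660 CPM under shControl labels. OBSL1, which like CUL7 is mutated in 3M syndrome, had 26.3 ± 1.98 CPM, against 36.4 ± 1.53 CPM under shControl labels. The other partner, CCDC8, did not pass the filter, with 30 counts in all under shHDAC5 labels and 1 under shControl labels; it passed and rose without shHDAC5 replicate 3 or without any 1 of the shControl libraries.

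**Figure D5:**
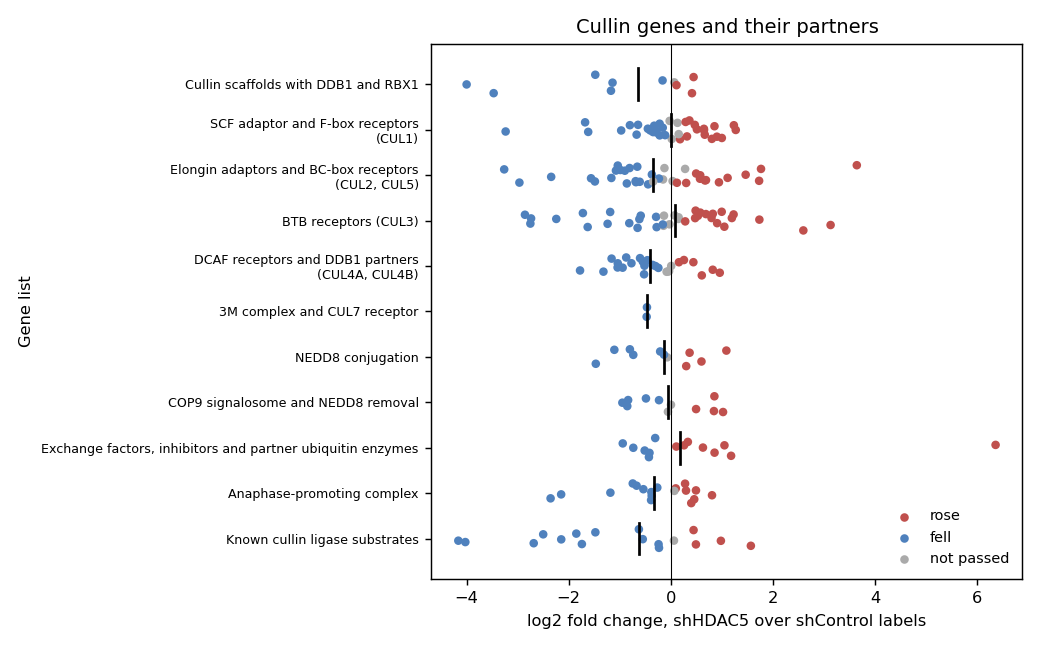
log2 fold change (shHDAC5 over shControl labels) of every tested gene in the cullin set and in the 10 partner lists, red for genes that rose, blue for those that fell and grey for those that did not pass, with a black line at each list's median. The medians lie between -0.65 for the cullin set and 0.18 for the exchange factors and partner enzymes, and CAND2 stands farthest to the right at 6.36.

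Genes that attach NEDD8 moved both ways. Of 11, 4 rose and 6 fell, 1 missed the threshold, and the median was -0.13. With upper-quartile factors, and with total counts, 4 rose and 4 fell. RNF7, the RING protein paired with CUL5, fell to 22.9 ± 1.03 CPM in the libraries labelled shHDAC5, against 63.5 ± 4.04 CPM in those labelled shControl, a log2 fold change of -1.47 where RBX1 had -1.48. NAE1, a subunit of the enzyme that activates NEDD8, fell to 25.2 ± 1.29 CPM, against 54.3 ± 2.05 CPM under shControl labels. DCUN1D3 and DCUN1D2, of the family that helps attach NEDD8 to cullins, rose. DCUN1D3 reached 37.9 ± 1.23 CPM, against 17.8 ± 1.71 CPM under shControl labels. DCUN1D2 reached 46.9 ± 1.87 CPM, against 30.9 ± 2.97 CPM under shControl labels. Outside the rule, NEDD8 itself did not pass, at 16.1 CPM under shHDAC5 labels and 16.9 CPM under shControl labels.

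Of 11 genes for NEDD8 removal, 4 rose and 5 fell, 2 missed the threshold, and the median was -0.06. The split became 5 rising and 4 falling with upper-quartile factors and 6 and 4 with total counts. COPS5, the catalytic subunit of the COP9 signalosome, fell to 32.1 ± 1.43 CPM in the libraries labelled shHDAC5, against 57.9 ± 2.12 CPM in those labelled shControl. Its partner subunit COPS6 fell to 70.9 ± 2.92 CPM, against 137 ± 4.19 CPM under shControl labels. COPS9 and COPS8, also subunits of the signalosome, rose with log2 fold changes of 0.85 and 0.84.

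All 14 exchange factors, inhibitors and partner ubiquitin enzymes passed, 8 upward and 6 downward, with a median of 0.18. CAND2, the less widely expressed of the CAND exchange factors, had 13.9, 13.0 and 12.2 CPM in the libraries labelled shHDAC5, against 0, 0.349 and 0.121 CPM in those labelled shControl. Its log2 fold change was 6.36 (SE 0.273) and rests on 7 counts in all under shControl labels. It was 5.78 without shControl replicate 1 and 7.53 without shControl replicate 2. Outside the rule, the common exchange factor CAND1 fell to 157 CPM under shHDAC5 labels, against 210.3 CPM under shControl labels. USP15, a deubiquitinase that associates with the COP9 signalosome, rose to 157 ± 2.18 CPM, against 69.3 ± 2.63 CPM under shControl labels. UBE2D3 and UBE2R2, enzymes that hand ubiquitin to cullin ligases, fell. UBE2D3 had 91.9 ± 1.74 CPM, against 177 ± 6.13 CPM under shControl labels. UBE2R2 had 54.7 ± 1.84 CPM, against 91.1 ± 2.00 CPM under shControl labels.

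The anaphase-promoting complex is a related ligase built on ANAPC2, a cullin-like subunit, and ANAPC11, a RING protein. Of its 18 listed genes, 7 rose and 10 fell, 1 missed the threshold, and the median was -0.32. ANAPC16 fell to 29.8 ± 1.30 CPM in the libraries labelled shHDAC5, against 153 ± 5.55 CPM in those labelled shControl. UBE2C, the ubiquitin-conjugating enzyme that works with the complex, fell to 27.1 ± 1.52 CPM, against 120.1 ± 2.54 CPM under shControl labels. ANAPC10 and ANAPC15 rose, with log2 fold changes of 0.81 and 0.49. Outside the rule, ANAPC2 fell with -0.54 and ANAPC11 rose with 0.46.

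Among 17 known substrates of cullin ligases, 4 transcripts rose and 12 fell, 1 missed the threshold, and the median was -0.63. These are RNA levels, while the ligases act on proteins, which were not measured. CDKN1B, the cell cycle inhibitor p27 that the CUL1 receptor SKP2 degrades, fell to 6.53 ± 1.35 CPM in the libraries labelled shHDAC5, against 117 ± 2.36 CPM in those labelled shControl. MYC, a target of FBXW7, fell to 34.2 ± 1.43 CPM, against 558 ± 5.67 CPM under shControl labels. CDKN1C, the inhibitor p57, rose to 148 ± 0.354 CPM, against 49.7 ± 4.08 CPM under shControl labels. RHOA, a small GTPase that CUL3 ligases degrade, rose to 1027 ± 8.66 CPM, against 520.1 ± 10.8 CPM under shControl labels.

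GATA1 peaks at the 10 genes were a readout that played no part in choosing them. They come from PANC-1 and 1 list per condition, so no difference between the lists was tested. Peak names inside the lists contradict the labels, since the list labelled shHDAC5 holds names with NC and the list labelled shControl names with SAHA. Each of the 10 genes held a peak summit within its body in both lists. The share of all coding genes that did was not computed, so nothing is read from that count. In these gene bodies lay 54 summits of the list labelled shHDAC5 and 27 of the list labelled shControl. This was 8.17 peaks per 100 kb of gene body in the list labelled shHDAC5, where all coding genes together had 8.67, and 4.09 in the list labelled shControl, where all coding genes had 5.72. A summit lay within 1 kb of either end of 4 of the 10 genes in the list labelled shHDAC5, where 33.9% of 20037 coding genes had one, and of 6 in the list labelled shControl, where 52.1% had one. The 4 were CUL3, CUL4A, CUL7 and RBX1, and the 6 were CUL1, CUL2, CUL5, CUL7, DDB1 and RBX1. CUL2 was counted for a summit 502 bases beyond its upstream end, which lay inside the neighbouring gene CREM. A summit of the list labelled shHDAC5 lay 545 bases downstream of the CUL2 start used for its promoter windows below. That summit was not counted, because this start lies within the gene body and not at its end. Within 5 kb the number of genes with a summit near an end was 9 in the list labelled shHDAC5, with 77.3% of coding genes, and 8 in the list labelled shControl, with 70.6%. At a q of at most 0.05 it was 0 in both lists, with 0.255% of coding genes in the list labelled shHDAC5 and 6.5% in the list labelled shControl. At a fold of at least 5 it was also 0 in both, with 0.02% and 0.634% of coding genes.

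The peaks in or within 1 kb of these genes were weak, as were most peaks of both lists. Their median fold enrichment was 2.32 in the list labelled shHDAC5, against 2.33 over all its peaks. In the list labelled shControl it was 2.67, against 2.73 over all its peaks. A q of at most 0.05 was reached by 0.419% of all peaks in the list labelled shHDAC5 and 5.10% in the list labelled shControl. The authors' fold enrichment ran between 1.71 and 3.42 in the list labelled shHDAC5 and between 2.10 and 3.79 in the list labelled shControl, and the highest −log10 q was 0.357 in the list labelled shHDAC5 and 0.800 in the list labelled shControl. The highest fold in the list labelled shControl was in CUL1, 1541 bases downstream of its outermost start, and the highest in the list labelled shHDAC5 was shared by RBX1 and DDB1. Peaks of the lists overlapped each other in CUL7, CUL9 and RBX1. CUL7 and CUL9 had 18.5 and 11.8 body peaks per 100 kb in the list labelled shHDAC5, and 30.8 and 14.2 in the list labelled shControl. The lowest densities were those of CUL3, with 3.47 in the list labelled shHDAC5 and 0.868 in the list labelled shControl.

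RefSeq promoter windows on GRCh38.p14, which run from 250 bases before to 50 bases after a start, were found for 9 of the 10 genes, in 22 windows. A peak covered part of 8 windows. As spellings of the GATA factor motif, AGATAA was searched with a last letter A or G and a first letter A or T, on both strands. Such a word was found in 4 windows, none of which lay under a peak. Of the 9 outermost windows, 2 held such a word, those of CUL1 and CUL4B, where 19.8% of 15843 coding promoters did. A match describes letters only and is no sign of binding. The outermost CUL1 window (chr7:148697506-148697805, plus strand) is shown because it holds 2 of the words at a gene that was 16.0-fold lower, with the words in capitals. This window had no peak in either list, but some other CUL1 windows did, in the list labelled shControl, with folds of 2.67 and 3.79. None of the other CUL1 windows held a word.
CUL1: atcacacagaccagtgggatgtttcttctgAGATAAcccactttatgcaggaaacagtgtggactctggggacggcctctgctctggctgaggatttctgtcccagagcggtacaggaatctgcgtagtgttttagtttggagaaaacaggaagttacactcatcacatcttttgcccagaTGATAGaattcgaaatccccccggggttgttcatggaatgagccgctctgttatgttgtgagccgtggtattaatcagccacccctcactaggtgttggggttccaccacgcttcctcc
RBX1 (chr22:40951128-40951427, plus strand) is shown for a peak of the list labelled shHDAC5 with a fold of 3.42. CUL5 (chr11:108008648-108008947, plus strand) and DDB1 (chr11:61333056-61333355, minus strand) are shown for peaks of the list labelled shControl with folds of 2.57 and 2.67. Capitals mark the bases under the peak.
RBX1: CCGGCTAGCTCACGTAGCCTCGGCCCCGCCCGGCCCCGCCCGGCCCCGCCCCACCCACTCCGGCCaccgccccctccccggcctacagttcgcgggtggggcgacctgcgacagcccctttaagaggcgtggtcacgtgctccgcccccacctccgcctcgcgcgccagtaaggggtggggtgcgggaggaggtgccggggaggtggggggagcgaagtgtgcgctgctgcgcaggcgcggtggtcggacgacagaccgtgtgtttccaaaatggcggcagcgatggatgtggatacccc
CUL5: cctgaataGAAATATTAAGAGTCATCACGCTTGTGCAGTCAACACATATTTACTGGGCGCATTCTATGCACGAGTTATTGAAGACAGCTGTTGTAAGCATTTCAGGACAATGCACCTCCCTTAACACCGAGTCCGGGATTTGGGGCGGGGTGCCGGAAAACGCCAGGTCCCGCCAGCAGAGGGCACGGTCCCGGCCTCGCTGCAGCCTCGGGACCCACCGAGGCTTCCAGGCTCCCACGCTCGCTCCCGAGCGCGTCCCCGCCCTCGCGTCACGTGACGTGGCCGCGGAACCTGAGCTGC
DDB1: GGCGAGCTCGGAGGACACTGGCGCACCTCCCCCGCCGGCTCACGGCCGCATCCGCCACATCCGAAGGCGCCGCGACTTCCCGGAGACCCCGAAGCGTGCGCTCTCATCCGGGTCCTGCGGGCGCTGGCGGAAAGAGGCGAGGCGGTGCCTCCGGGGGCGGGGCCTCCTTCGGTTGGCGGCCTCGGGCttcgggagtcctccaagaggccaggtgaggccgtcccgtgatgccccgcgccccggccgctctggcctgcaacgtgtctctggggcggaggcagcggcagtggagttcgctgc

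The windows differed in base composition. The outermost windows of DDB1, CUL3 and RBX1 were 74.3%, 73.7% and 73.3% G or C, and that of CUL4B was 45.7%, where the median of all coding promoters was 62.7%. The outermost CUL4A window was 53.7% G or C. Its observed-to-expected CpG ratio was 0.928 and that of the outermost CUL1 window 0.427, where the median of all coding promoters was 0.761. Base composition was not computed for the other windows of these genes, so the values do not describe all their promoters. No peak of either list covered any of the 4 windows of CUL4A, the gene that was 11.1-fold lower in the libraries labelled shHDAC5. The same held for every window of CUL4B and CUL9, whose log2 fold changes were -0.16 and 0.07. The peaks are from PANC-1, while the RNA is from libraries labelled BxPC-3.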

How the data were processed

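RNA was measured in 6 libraries and GATA1 binding in 8 samples, and each was put in its group by the treatment, and for GATA1 the antibody, that its labels give. The RNA values are read counts per gene, whole numbers that the authors deposited raw, with a gene length. Each peak list holds the authors' fold enrichment per peak as a ratio, and the −log10 q as deposited. The submitters' processing notes name hg38, MACS2 2.2.7.1, deepTools 3.5.0, featureCounts 2.0.1, fastp 0.23.2 and FastQC 0.11.9. No source used here gives the aligner, annotation release or strand setting. Inputs were not analysed.

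Genes kept by edgeR's group-wise filter were scaled by TMM. The test was edgeR 4.0.16's quasi-likelihood test in R 4.3.3 on group alone (threshold 0.05 after Benjamini-Hochberg adjustment over 19181 genes). CPM use TMM-scaled library sizes. SEs were taken as the size of the log2 fold change divided by the root of F. Symbols matched 61369 of 61541 gene IDs. The members and lists were chosen with earlier results of these data known. Named partners are, per list, up to 2 called genes with the largest rise and 2 with the largest fall at an average log2 CPM of at least 1. Peaks were assigned by summit to RefSeq genes (GRCh38.p14). Libraries within a group differed by more than sampling noise (chi-square per degree of freedom 1.57 to 2.07). Alternatives were DESeq2 1.42.0, other scalings, filters, thresholds and peak windows, the replicate number as a block, and leaving out each library. Python 3.11.15 with pandas 2.3.3 and matplotlib 3.10.9 made the other tables and figures.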

Additional observations from a re-analysis of the deposited data

How the results depend on the processing

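Requiring a 2-fold change lowered the counts to 5071 rising and 3846 falling genes in the whole table, to 19 and 37 among the partners and to 0 rising genes of the cullin set. Keeping peaks with a q of at most 0.05, or a fold of at least 5, left 0 genes of the set with a summit near an end in either list, and a 5 kb window gave 9 in the list labelled shHDAC5. The log2 fold change of CUL4B reversed to 0.022 under total counts; the cause was not tested. Leaving out a library gave 8499 to 8883 rising and 7622 to 7718 falling genes. DESeq2 gave 10617 and 7695. The replicate block gave 8514 rising and 7558 falling genes, with 3 and 6 in the set as without it. Same-numbered libraries did not deviate together (correlations of -0.0126 to 0.00593), so the numbers were not taken to pair them. The lowest count of a gene of the set in a library was 84.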

Other observations

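Coding genes within 500 kb were also counted beside other genes of the cullin set. Of 9 tested neighbours of CUL1, 3 rose and 4 fell by edgeR's quasi-likelihood test. For CUL5 it was 5 and 5 of 10, and for DDB1 6 and 13 of 21. For CUL2 it was 0 and 2 of 3. Over all genes tested, 44.8% rose and 39.9% fell. DNPH1, a nucleotide hydrolase gene 1042 bases from CUL9, averaged 7.14 CPM in the libraries labelled shHDAC5 and 53.8 CPM in those labelled shControl, a log2 fold change of -2.91 where CUL9 had 0.07. A peak in the list labelled shControl, 4677 bases beyond an end of CUL9, had a fold of 4.14 and a −log10 q of 1.70. The summit of that peak lay inside DNPH1, not in CUL9. These neighbours and this peak were singled out after their values were seen.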
